A study of Mus musculus with 9 samples.

Results

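The Notch receptors, their ligands and the fringe enzymes that modify the receptors were read by 20 probe sets of 10 genes, among 45101 probe sets on each expression array. A probe set is a group of short probes read as 1 measurement. Members were taken by name: every probe set whose only gene symbol in the array annotation is Notch1, Notch2, Notch3, Notch4, Jag1, Jag2, Dll1, Lfng, Mfng or Rfng. The receptors had 9 probe sets of 4 genes, the ligands 6 of 3 genes and the fringes 5 of 3 genes.

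The arrays hold RNA of sorted mouse bone marrow progenitors in 3 groups of 3. NcstnKO GMP and WT GMP are granulocyte-monocyte progenitors, committed myeloid precursors sorted as lineage-negative, cKit+, Sca1-, CD34+ and FcgammaRII/III+. WT LSK are lineage-negative, cKit+, Sca1+ cells, the fraction with the hematopoietic stem and multipotent progenitor cells. All mice carried Ncstn flox/flox, so the WT groups are floxed littermates without Cre, and the NcstnKO mice also carried Mx1-cre. The Mx1 promoter answers to interferon in many cell types, so Cre is not limited to blood progenitors. Both genotypes were given polyIC, an interferon inducer, in 3 doses of 20 µg per g of body weight beginning at 14 days of age. They were 6 weeks old at analysis, 4 weeks after injection. The labels name the source of each array as a mouse, in the singular, and do not mention pooling. No NcstnKO LSK group was analysed here.

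Notch receptors are single-pass membrane proteins that are cut when a ligand of the Delta or Jagged type on a neighbouring cell binds them. ADAM sheddases cut first, and γ-secretase, of which nicastrin (Ncstn) is a subunit, then frees the intracellular domain, which joins RBPJ and Mastermind proteins in the nucleus to switch on targets such as the Hes and Hey genes. Fringe enzymes extend the O-fucose that Pofut1 places on the receptor and so alter its response to each kind of ligand. In the bone marrow and thymus the pathway is best known for directing progenitors to the T lineage.

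Promoter sequence was at hand in RefSeq (GRCm38.p6, 250 bases before to 50 after each gene's start) for 9 of the 10 genes, in 10 windows, 2 of them for Dll1. Lfng is shown because its window was the 1 of 10 that holds the RBPJ core TGGGAA on either strand, with 2 matches whose first bases lie 135 and 108 bases upstream of the start. Of all 32851 promoters of that length, 25.6% hold the core. The longer GTGGGAA, which overlaps it, was in 6.38% of all promoters and again in Lfng. Notch3 and Jag2 are shown because they had the widest differences between GMP and LSK among the receptors and ligands (values below). Their capitals mark the GC box GGGCGG, searched on both strands, which was in 6 of the 10 windows and in 35.7% of all promoters. A match is a description of these letters and not a site of binding. The Lfng window is chr5:140607091-140607390 on the plus strand. Those of Notch3, chr17:32166841-32167140, and Jag2, chr12:112929446-112929745, are on the minus strand.
Lfng: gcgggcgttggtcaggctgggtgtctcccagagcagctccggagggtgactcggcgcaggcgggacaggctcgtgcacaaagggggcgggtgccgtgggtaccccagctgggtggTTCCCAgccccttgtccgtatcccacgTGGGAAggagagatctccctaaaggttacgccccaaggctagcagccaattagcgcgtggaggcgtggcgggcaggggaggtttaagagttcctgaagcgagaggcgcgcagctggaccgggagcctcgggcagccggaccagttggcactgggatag
Notch3: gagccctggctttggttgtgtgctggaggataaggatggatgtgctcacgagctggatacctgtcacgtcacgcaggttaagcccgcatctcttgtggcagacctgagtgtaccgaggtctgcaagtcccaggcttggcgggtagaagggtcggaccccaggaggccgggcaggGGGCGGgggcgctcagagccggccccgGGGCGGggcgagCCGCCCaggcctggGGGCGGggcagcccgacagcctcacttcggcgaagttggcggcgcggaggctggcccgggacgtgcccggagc
Jag2: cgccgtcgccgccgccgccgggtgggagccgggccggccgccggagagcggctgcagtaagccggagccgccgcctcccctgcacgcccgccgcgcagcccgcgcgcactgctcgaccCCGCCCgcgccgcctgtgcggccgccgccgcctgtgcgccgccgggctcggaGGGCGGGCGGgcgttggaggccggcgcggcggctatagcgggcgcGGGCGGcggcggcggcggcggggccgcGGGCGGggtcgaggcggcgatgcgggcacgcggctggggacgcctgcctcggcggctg

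The targeted gene was read first. Ncstn probe set 1418570_at read 7.79, 7.78 and 7.76 in NcstnKO GMP, against 9.25, 9.31 and 9.26 in WT GMP and 9.13, 9.02 and 8.99 in WT LSK (log2 intensity, as are all levels here). By limma it was 2.82-fold lower in NcstnKO than in WT GMP (a log2 difference of -1.50 with SE 0.08, adjusted p = 0.00132), the direction that the genotype labels give. A second Ncstn probe set, 1444532_at, differed by 0.13 (adjusted p = 0.753). Of the LSK markers measured, 6 of 6 were lower in WT GMP than in WT LSK. Of 7 GMP markers, 6 were higher and Cd34 was lower, where 28.8% of all probe sets were lower and 6.04% higher. With only the brightest probe set of each gene, 38% of all genes were called in either direction. Median intensity was 65.3 to 68.6 on the 6 GMP arrays and 98.3 to 103 on the 3 LSK arrays. The sex transcripts went against the labels on 4 arrays: WT GMP replicates 2 and 3, labelled female, carried male transcripts, and NcstnKO replicates 2 and 3, labelled male, carried female ones. Without these 4 arrays the Ncstn difference was -1.46 (adjusted p = 0.273), with 1 array left in each GMP group. By transcripts, all 3 NcstnKO arrays were female, against 1 of 3 in each WT group. Actb signal at the 3 prime end over that at the 5 prime end, a sign of RNA length, had a log2 ratio of 0.899 ± 0.14 in NcstnKO GMP and 0.577 ± 0.111 in WT GMP (SD, n = 3 each, exact 2-sided permutation p = 0.1, the smallest this design can give). These results come from cell populations, in which fewer cells of a type and less RNA per cell cannot be told apart.

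Between genotypes, no Notch receptor, ligand or fringe passed the test in NcstnKO against WT GMP: 0 of 20 probe sets had an adjusted p under 0.05 in limma, where 1.75% of all 45037 probe sets tested did (0.604% higher and 1.15% lower). The lowest adjusted p was 0.136, and 4 of the 20 had an unadjusted p under 0.05, as did 19.8% of all probe sets. The groups did not overlap for 5 of 20, where 27.2% of all probe sets did not. The median log2 fold change of the 20 was 0.02, beside 0.04 for all probe sets. Dll1 and Notch4 1436901_at were at background in both GMP groups, so their intervals say nothing of a fold. For 14 of the other 18 the 95% interval of the difference lay within 1 log2 unit on either side, and for 4 it reached beyond (Notch3 1421964_at, Jag2 1426430_at and both Notch4 probe sets above background). On leaving out any 1 of the 9 arrays, 0.00222% to 0.633% of all probe sets were called and still none of the 20.

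Between cell types, 7 of 10 genes passed in WT GMP against LSK with only the brightest probe set of each gene, beside 38% of all genes. By at least 1 probe set, 9 of 10 were lower as deposited, and 6 under each of 3 scalings given below. A gene with more probe sets has more ways to enter that count. The share of all genes with at least 1 such probe set was not counted. In WT GMP against WT LSK, 14 of 20 probe sets passed the test, all lower, and they covered 9 of 10 genes, the exception being Notch2. Of all probe sets, 34.9% passed and 28.8% passed as lower, and the groups did not overlap for 15 of the 20 members and for 51.8% of all. The median log2 fold change was -0.71 for the 20 and -0.20 for all probe sets. In NcstnKO GMP against WT LSK, 15 of 20 passed, 14 lower and 1 higher, beside 43.5% of all probe sets. Of all, 32.1% passed as lower and 11.4% as higher. The median was -0.66 for the 20 and -0.17 for all. Without the 4 arrays whose sex transcripts go against their labels, which leaves 1 array in each GMP group, 7 of 20 passed in WT GMP and 4 in NcstnKO GMP against LSK, beside 7.38% and 14% of all probe sets. Each pair of the 3 comparisons shares the arrays of 1 group, those with LSK sharing the LSK arrays. A probe set was taken as above background where it exceeded the upper range of the bacterial control probe sets without target, at 4.30 to 4.57 on these arrays. By this limit 19 of 20 were above background in at least 1 group, and among probe sets of that kind 38.1% passed in WT GMP against WT LSK and 2.27% in NcstnKO against WT GMP.

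**Figure D1:**
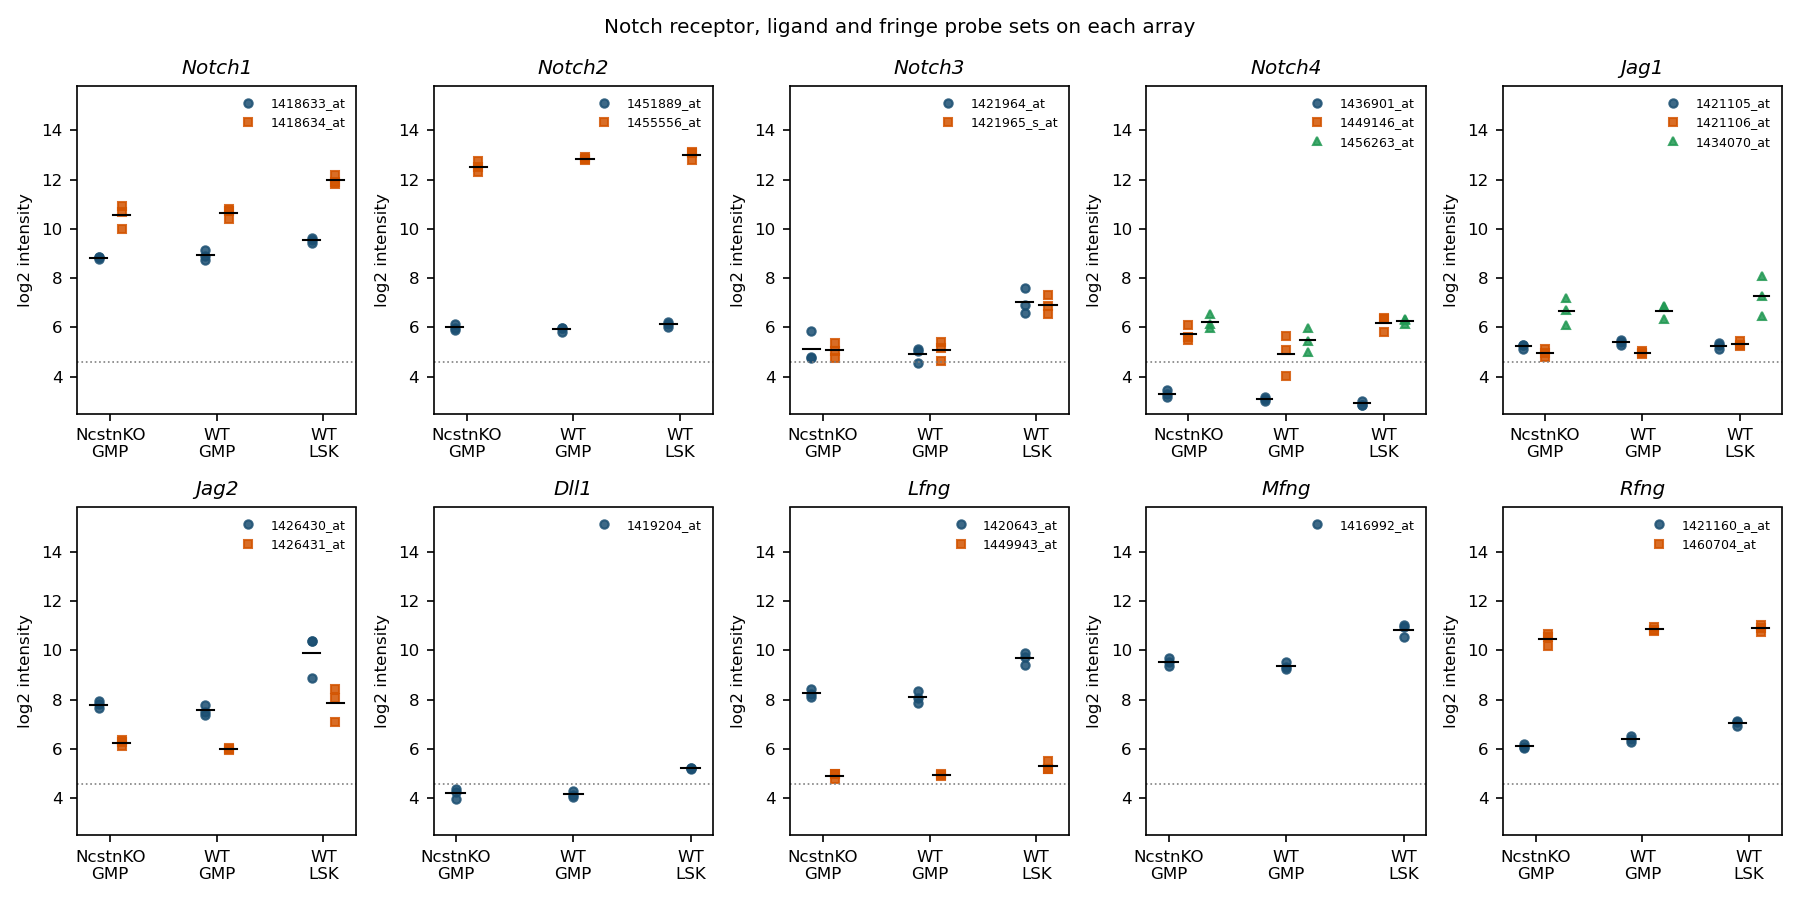
Level of each of the 20 probe sets (y axis, log2 intensity) on the 3 arrays of each group (x axis), 1 panel per gene. Points are arrays, bars are group means, and the dotted line is the highest background limit, 4.57. The GMP arrays lie below LSK for all probe sets of Notch1, Notch3, Jag2, Dll1, Lfng and Mfng, and for Rfng 1421160_a_at and Jag1 1421106_at. The WT GMP arrays spread most for Notch4.

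Among the receptors, Notch1 and Notch3 were lower in GMP than in LSK by both of their probe sets as deposited. Notch1, the receptor required for commitment to the T lineage, read 10.94, 10.70 and 10.00 in NcstnKO GMP with its brighter probe set 1418634_at, against 10.41, 10.80 and 10.74 in WT GMP and 11.92, 12.18 and 11.84 in WT LSK. All 6 GMP arrays were below all 3 LSK arrays, and the 2 GMP groups overlapped. The log2 fold change was -1.33 (SE 0.23, 2.51-fold lower, adjusted p = 0.00312) in WT GMP against LSK and -1.43 (adjusted p = 0.00149) in NcstnKO GMP against LSK. Between genotypes it was -0.10 (adjusted p = 0.850), with a 95% interval of -0.63 to 0.43. The dimmer Notch1 probe set 1418633_at read 8.84, 8.85 and 8.79 in NcstnKO GMP, against 8.75, 9.16 and 8.90 in WT GMP and 9.54, 9.44 and 9.64 in WT LSK. Its differences from LSK were smaller, at -0.60 in WT GMP (adjusted p = 0.00495) and -0.71 in NcstnKO GMP (adjusted p = 0.00157), and between genotypes it was -0.11 (adjusted p = 0.655). Its call in WT GMP was lost when the arrays were quantile normalized (-0.25, adjusted p = 0.136) or centred (-0.25, adjusted p = 0.116). In NcstnKO GMP it was lost after quantile normalization (-0.32, adjusted p = 0.0543) and kept after centring (-0.33, adjusted p = 0.0405).

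Notch3, a receptor best known in vascular smooth muscle and pericytes, had the largest decrease of the receptors and was near background in GMP. Probe set 1421964_at read 5.85, 4.74 and 4.81 in NcstnKO GMP, against 4.56, 5.05 and 5.12 in WT GMP and 7.58, 6.90 and 6.60 in WT LSK. The second probe set, 1421965_s_at, read 5.37, 5.04 and 4.77 in NcstnKO GMP, against 4.62, 5.41 and 5.16 in WT GMP and 7.31, 6.87 and 6.53 in WT LSK. With both, every LSK array was above every GMP array and the 2 GMP groups overlapped. In WT GMP against LSK the 2 probe sets were 4.33-fold and 3.57-fold lower (log2 fold changes -2.12, SE 0.35, and -1.84, SE 0.26, adjusted p = 0.00233 and 0.00119). In NcstnKO GMP against LSK they were at -1.89 and -1.84 (adjusted p = 0.00274 and 0.000775). Between genotypes they differed by 0.23 (95% interval -0.56 to 1.01) and -0.01 (95% interval -0.60 to 0.59), with adjusted p = 0.768 and 0.994.

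Notch2, a receptor needed for marginal zone B cells, was the gene with no call in WT GMP against LSK. Its bright probe set 1455556_at read 12.49, 12.75 and 12.32 in NcstnKO GMP, against 12.79, 12.83 and 12.91 in WT GMP and 13.09, 12.81 and 13.13 in WT LSK. All 3 NcstnKO arrays were below all WT arrays of both kinds, by a margin of 0.04 to WT GMP. The difference between genotypes was -0.32 (95% interval -0.63 to -0.02), which had an unadjusted limma p of 0.0416 and did not pass at an adjusted p = 0.230. Against LSK it was -0.17 in WT GMP (adjusted p = 0.365) and -0.49 in NcstnKO GMP (adjusted p = 0.0179). That second call was lost without LSK replicate 1, LSK replicate 3 or NcstnKO replicate 3, with adjusted p of 0.0565 to 0.0577, and after centring, at -0.11 (adjusted p = 0.535). The dim probe set 1451889_at ranged from 5.90 to 6.13 in NcstnKO GMP, from 5.82 to 5.98 in WT GMP and from 6.01 to 6.23 in WT LSK, with no call in any comparison as deposited. After quantile normalization it was called higher in NcstnKO GMP than in LSK, at 0.42 (adjusted p = 0.0125).

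Notch4, known for its part in blood vessels, was the receptor whose WT GMP arrays spread most (SD 0.48 with 1456263_at and 0.83 with 1449146_at). Probe set 1456263_at read 6.13, 6.56 and 5.99 in NcstnKO GMP, against 5.02, 5.45 and 5.97 in WT GMP and 6.13, 6.34 and 6.29 in WT LSK. Probe set 1449146_at read 5.62, 6.09 and 5.51 in NcstnKO GMP, against 4.02, 5.09 and 5.66 in WT GMP and 5.82, 6.32 and 6.38 in WT LSK. WT GMP replicate 1 was the lowest array with both, and below its background limit with the second.
In NcstnKO against WT GMP the differences were 0.74 (95% interval 0.20 to 1.29) and 0.81 (95% interval -0.05 to 1.68). These were the highest of the 20 and did not pass, at adjusted p = 0.136 and 0.277. The groups were apart by 0.01 with the first probe set and overlapped with the second. Without WT GMP replicate 1 the differences were 0.51 and 0.36. In WT GMP against LSK both passed as deposited, though under neither rescaling, at -0.77 (adjusted p = 0.0350) and -1.25 (adjusted p = 0.0327). Without WT GMP replicate 1 they were -0.54 (adjusted p = 0.0981) and -0.80 (adjusted p = 0.0582). The first call was also lost without any 1 of the LSK arrays or without WT GMP replicate 2, and the second without LSK replicate 2, LSK replicate 3 or WT GMP replicate 2. In NcstnKO GMP against LSK neither passed, at -0.03 and -0.44 (adjusted p = 0.935 and 0.379). The third Notch4 probe set, 1436901_at, was not above background on any array. It gave the 1 higher call in NcstnKO GMP against LSK, with levels of 3.28, 3.18 and 3.47 in NcstnKO GMP and 2.86, 3.03 and 2.86 in WT LSK. As both groups were below the limit, it has no fold. This call (adjusted p = 0.0172) was lost without LSK replicate 1, LSK replicate 3 or NcstnKO replicate 3 (adjusted p = 0.0513 to 0.0556) and with an offset of 16 added to the intensities (adjusted p = 0.0552).

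Of the ligands, Jag2 and Dll1 were lower in GMP, and Jag1 differed between its probe sets. Jag2, a Serrate-type ligand, read 7.93, 7.81 and 7.65 in NcstnKO GMP with probe set 1426430_at, against 7.38, 7.80 and 7.50 in WT GMP and 10.38, 10.36 and 8.88 in WT LSK. With probe set 1426431_at it read 6.34, 6.27 and 6.13 in NcstnKO GMP, against 5.96, 6.04 and 5.99 in WT GMP and 8.08, 8.41 and 7.11 in WT LSK. LSK replicate 3 was the lowest LSK array with both and still stood above every GMP array. The difference of WT GMP from LSK was -2.31 (SE 0.36, 4.97-fold lower, adjusted p = 0.00189) and -1.87 (SE 0.28, 3.65-fold lower, adjusted p = 0.00157), the first being the widest of the 20. Without LSK replicate 3 the 2 differences were -2.81 and -2.25. NcstnKO GMP differed from LSK by -2.08 and -1.62 (adjusted p = 0.00216 and 0.00212). Between genotypes the differences were 0.24 (95% interval -0.59 to 1.06) and 0.25 (95% interval -0.39 to 0.89), at adjusted p = 0.767 and 0.673. The GMP groups did not overlap with the second probe set.

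Dll1, a Delta-type ligand, was above background in LSK and at background in both GMP groups. Its probe set 1419204_at read 4.36, 3.98 and 4.24 in NcstnKO GMP, against 4.14, 4.30 and 4.02 in WT GMP and 5.17, 5.24 and 5.22 in WT LSK. It was at least 1.84-fold lower in WT GMP and at least 1.71-fold lower in NcstnKO GMP than in LSK, taking the background limit for arrays below it (adjusted p = 0.000424 and 0.000316). NcstnKO and WT GMP were both at background, so their comparison has no fold.

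Jag1, the other Serrate-type ligand, had 3 probe sets that did not move together. The brightest, 1434070_at, read 6.72, 7.20 and 6.10 in NcstnKO GMP, against 6.86, 6.81 and 6.33 in WT GMP and 8.09, 7.28 and 6.45 in WT LSK. Its LSK arrays spread over more than 1 log2 unit and overlapped both GMP groups, and it passed in no comparison (adjusted p = 0.285 in WT GMP and 0.268 in NcstnKO GMP against LSK). Probe set 1421106_at ranged from 4.80 to 5.10 in NcstnKO GMP, from 4.91 to 5.03 in WT GMP and from 5.26 to 5.45 in WT LSK. It was called lower than in LSK, at -0.37 in WT GMP (adjusted p = 0.0275) and -0.38 in NcstnKO GMP (adjusted p = 0.0198). The NcstnKO call was lost after quantile normalization (-0.01, adjusted p = 0.947), after centring (0.0042, adjusted p = 0.977), and without LSK replicate 1 or NcstnKO replicate 1 (adjusted p = 0.0684 and 0.0613). Probe set 1421105_at ranged from 5.12 to 5.30 in NcstnKO GMP, from 5.28 to 5.49 in WT GMP and from 5.13 to 5.35 in WT LSK, with no call as deposited. The lower call of 1421106_at in WT GMP was lost under both rescalings, with a block for the replicate number (adjusted p = 0.0554), and without LSK replicate 1, WT GMP replicate 2 or WT GMP replicate 3. Between genotypes the 3 differed by -0.16 to 0.00 with no call.

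All 3 fringes were lower in GMP than in LSK with at least 1 probe set, that of Rfng not after quantile normalization in WT GMP. Mfng (manic fringe) read 9.70, 9.36 and 9.51 in NcstnKO GMP with its probe set 1416992_at, against 9.33, 9.54 and 9.25 in WT GMP and 10.95, 11.05 and 10.54 in WT LSK. Every LSK array was above every GMP array, and the 2 GMP groups overlapped. The difference was -1.47 (SE 0.16, 2.77-fold lower, adjusted p = 0.000321) in WT GMP and -1.32 (adjusted p = 0.000329) in NcstnKO GMP. Between genotypes it was 0.15 (95% interval -0.21 to 0.51, adjusted p = 0.644).

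Lfng (lunatic fringe), whose promoter holds the RBPJ core shown above, read 8.44, 8.09 and 8.25 in NcstnKO GMP with probe set 1420643_at, against 8.36, 8.05 and 7.85 in WT GMP and 9.72, 9.91 and 9.40 in WT LSK. The GMP groups overlapped each other and lay below every LSK array. Lfng differed from LSK by -1.59 in WT GMP (SE 0.18, 3.01-fold lower, adjusted p = 0.000377) and by -1.42 in NcstnKO GMP (adjusted p = 0.000408). Its difference between genotypes was 0.17 (95% interval -0.23 to 0.57, adjusted p = 0.640). The dim probe set 1449943_at lay between 4.78 and 4.97 on the GMP arrays and between 5.17 and 5.49 on the LSK arrays. It was also called lower, at -0.35 in WT GMP (adjusted p = 0.0366) and -0.38 in NcstnKO GMP (adjusted p = 0.0224). The WT GMP call of that dim probe set was lost under both rescalings, with a block for the replicate number (adjusted p = 0.0652), and without LSK replicate 1, any 1 of the WT GMP arrays or NcstnKO replicate 2. The NcstnKO call was lost after quantile normalization (-0.02, adjusted p = 0.875), after centring (0.00042, adjusted p = 0.998), and without LSK replicate 1 or NcstnKO replicate 1 (adjusted p = 0.0673 and 0.0703).

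Rfng (radical fringe) had 2 probe sets that gave different results against LSK. Probe set 1421160_a_at read 6.20, 6.05 and 6.08 in NcstnKO GMP, against 6.29, 6.42 and 6.53 in WT GMP and 6.92, 7.14 and 7.11 in WT LSK. The 3 groups did not overlap, with LSK highest and NcstnKO GMP lowest. Probe set 1460704_at read 10.68, 10.56 and 10.18 in NcstnKO GMP, against 10.96, 10.82 and 10.79 in WT GMP and 10.90, 11.02 and 10.75 in WT LSK. With it the WT groups overlapped and the NcstnKO arrays lay below both. The first differed from LSK by -0.65 in WT GMP (adjusted p = 0.00216) and -0.95 in NcstnKO GMP (adjusted p = 0.000234). The second differed by -0.03 (adjusted p = 0.872) and -0.42 (adjusted p = 0.0422), and its NcstnKO call was lost on leaving out 1 array in 7 of 9 cases. Between genotypes the differences were -0.30 (95% interval -0.54 to -0.06) and -0.38 (95% interval -0.71 to -0.06). The unadjusted limma p was 0.0196 and 0.0260, and neither passed at adjusted p = 0.163 and 0.186.

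**Figure D2:**
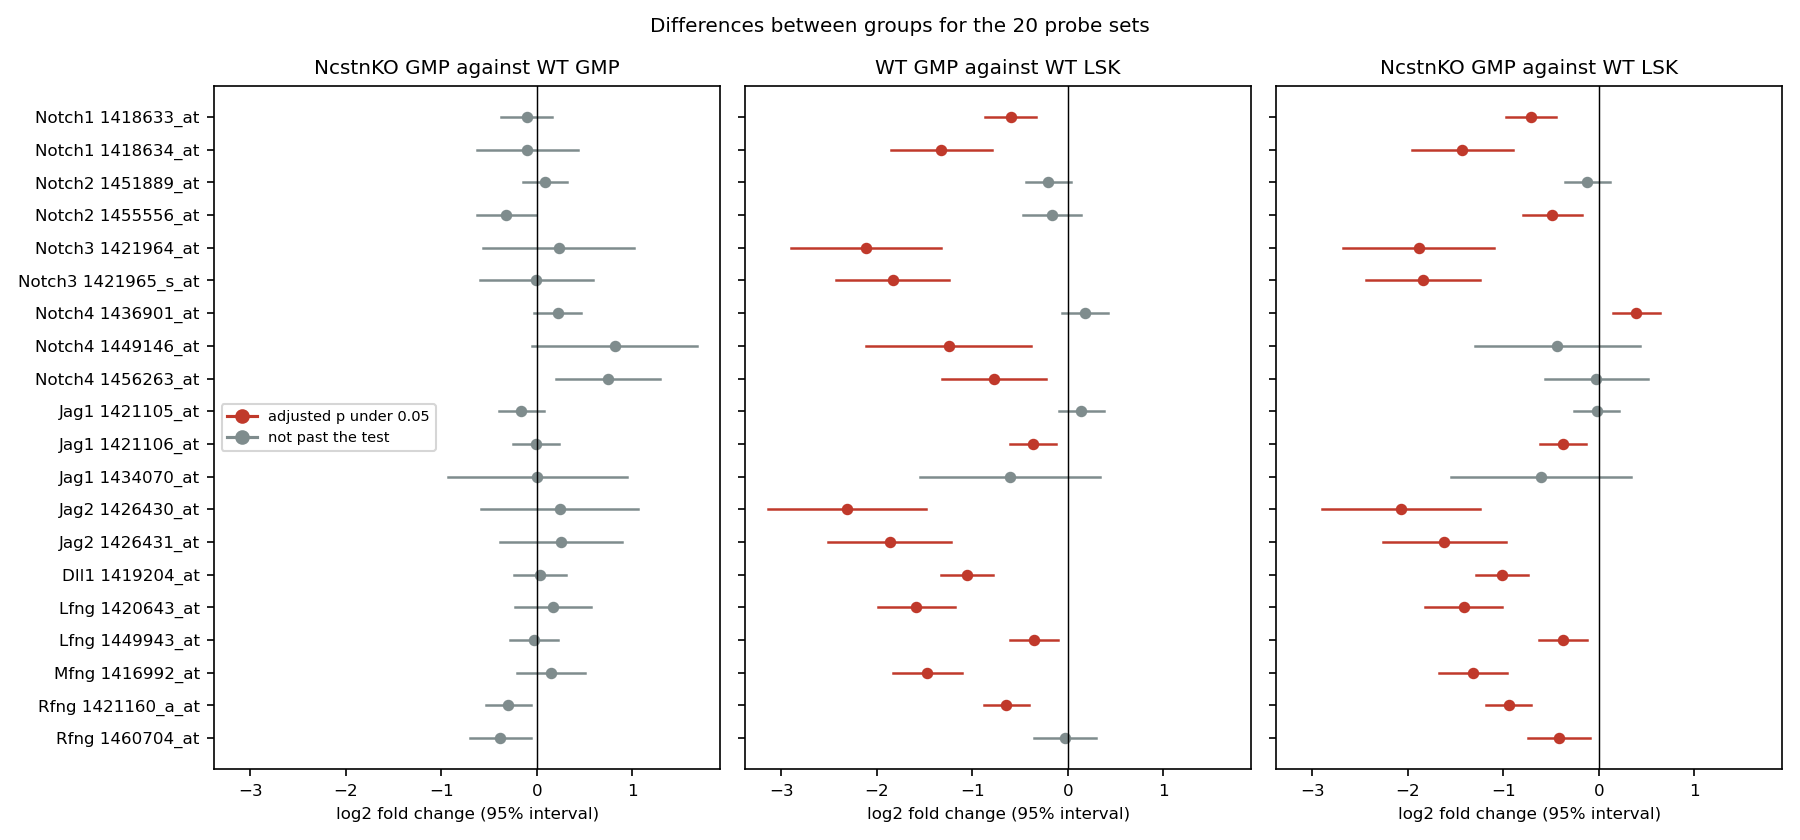
Log2 fold change of each of the 20 probe sets (x axis) in the 3 comparisons (panels). Points are limma estimates, lines their 95% intervals, and red marks an adjusted p under 0.05. None of the 20 is red in NcstnKO against WT GMP, 14 are red and lower in WT GMP against WT LSK, and 15 are red in NcstnKO GMP against WT LSK.

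The size of the difference from LSK depended on how the arrays were scaled. In WT GMP against LSK the median over all probe sets was -0.20 with the intensities as deposited. It was 0.06 once the arrays were quantile normalized and 0.15 once each was centred on its 75th percentile. Of all probe sets, 28.8% were called lower and 6.04% higher as deposited. With quantiles equalized 30.5% were called, 12.9% lower and 17.6% higher. With centring 40% were called, 12.9% lower and 27% higher. Among the 20 members, 8 were called lower and 1 higher after quantile normalization, and 9 lower and 2 higher after centring. The higher calls were Jag1 1421105_at, at 0.55 and 0.49, and the background-level Notch4 1436901_at after centring, which has no fold. The 8 probe sets lower under all 3 scalings, of 6 genes, were Notch1 1418634_at, both of Notch3, both of Jag2, and those of Dll1, Mfng and Lfng 1420643_at. Relative to the median of all probe sets as deposited, Notch1 1418634_at was at -1.13, Notch3 at -1.92 and -1.64, Jag2 at -2.12 and -1.67, Lfng at -1.39 and Mfng at -1.28. In all, 15 of 20 members were below the median of all probe sets under each scaling, taking the median of that scaling. The matching share of all probe sets was not counted, and under any 1 scaling a median splits all probe sets evenly. Several of the 20 read the same gene. In NcstnKO GMP against LSK the same 8 probe sets and Rfng 1421160_a_at were lower under all 3 scalings, where 18.6% of all probe sets were called lower after quantile normalization and 16.9% after centring. Called higher there were Notch2 1451889_at after quantile normalization, Jag1 1421105_at after either rescaling (0.36 with both, adjusted p = 0.021 and 0.0176), and the background-level Notch4 1436901_at under all 3 scalings.

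**Figure D3:**
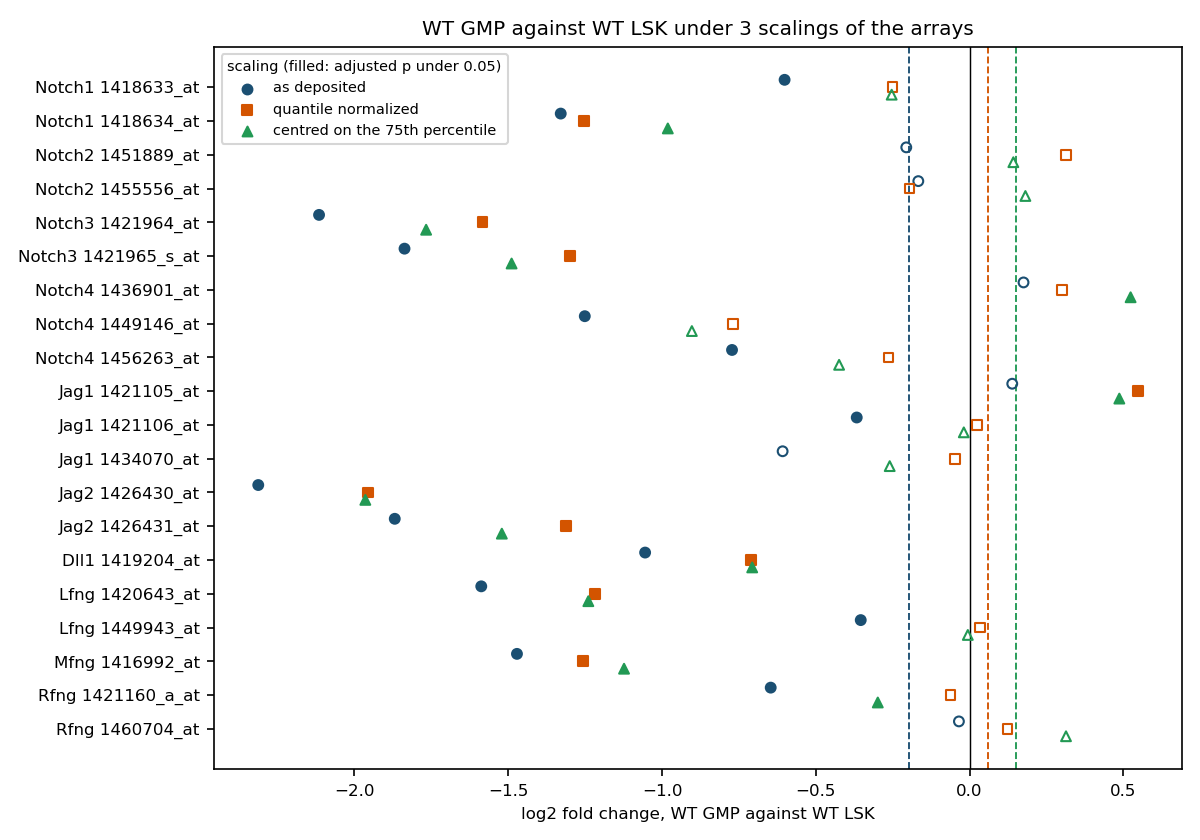
Log2 fold change of WT GMP against WT LSK (x axis) for each probe set under 3 scalings of the arrays. Filled symbols passed at an adjusted p under 0.05, and dashed lines are the medians of all probe sets, at -0.20 as deposited, 0.06 quantile normalized and 0.15 centred. Symbols of Notch3 and Jag2 stay far to the left under each scaling, while those of Jag1 1421106_at and Lfng 1449943_at move to about 0.

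Markers of several other cell types were lower in WT GMP than in LSK, and those of mast cells, basophils and eosinophils were higher. These calls are as deposited, where 28.8% of all probe sets were lower and 6.04% higher. Each marker was read by its brightest probe set. With 1 probe set per gene, 38% of all genes were called in either direction. Of 8 endothelial markers 5 were lower and 1 higher, and their summed linear intensity was 1313 to 1491 in WT GMP and 2603 to 3643 in LSK. Of 8 stromal markers 5 were lower, with sums of 1126 to 1939 in WT GMP and 2860 to 5097 in LSK. Of 9 B lymphoid markers 6 were lower, with sums of 4532 to 6266 in WT GMP and 16277 to 23917 in LSK. The T and NK list had 5 of 7 lower and 1 higher, although its sums were 8381 to 9337 in WT GMP and 4070 to 6183 in LSK. On the list for those 3 cell types 7 of 8 markers were higher and none lower, with sums of 36309 to 44761 in WT GMP and 10291 to 15896 in LSK. The erythroid list had 5 of 8 lower and the late neutrophil list 7 of 8. None of these markers was at background on all arrays. Between genotypes 5.7% of all genes were called with 1 probe set per gene, in either direction. Of all probe sets, 1.15% were called lower between genotypes, and 19.8% had an unadjusted limma p under 0.05. There 4 of 8 erythroid markers were lower in NcstnKO GMP, with sums of 5687 to 8361, against 12767 to 23241 in WT GMP. Of 7 macrophage markers 2 were lower, C1qa at -0.91 and C1qc at -1.46, and 5 had an unadjusted p under 0.05, with sums of 1476 to 3534 in NcstnKO GMP and 1788 to 2938 in WT GMP. Of 7 megakaryocyte markers Vwf was called lower, at -1.04. The late neutrophil markers went the other way, with a median log2 fold change of 0.36, though none of the 8 passed. There 3 had an unadjusted limma p under 0.05, with sums of 43272 to 47946 in NcstnKO GMP and 30754 to 39424 in WT GMP. Of the 8 endothelial markers none passed between genotypes in limma, with 3 at an unadjusted p under 0.05 and sums of 946 to 1266 in NcstnKO GMP and 1313 to 1491 in WT GMP. The part of such cells in the differences of the Notch genes was not tested.

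Beyond the receptors, ligands and fringes, 57 genes of the pathway were listed and 53 were measured, each by its brightest probe set. In NcstnKO against WT GMP 1.75% of all probe sets were called. In the fit with only the brightest probe set of each gene, 5.7% of 18193 genes were. Of the 53 genes 2 were called, both lower. These were Ncstn itself and Pofut1, which places the O-fucose that fringes extend. Pofut1 averaged 10.54 in NcstnKO GMP and 11.07 in WT GMP, a difference of -0.53 (SE 0.09, adjusted p = 0.0392). The call was lost without any 1 of the 9 arrays, at adjusted p of 0.0536 to 0.157. After adjusting for the Actb ratio the difference was -0.34 (adjusted p = 0.557). Over the 53 genes 11 had an unadjusted p under 0.05, beside 19.8% of all probe sets, and the median was -0.05. Hes1, a direct target, averaged 6.12 in NcstnKO GMP and 6.09 in WT GMP (adjusted p = 0.948). Of the 14 targets listed, 0 were called between genotypes in limma and 4 had an unadjusted p under 0.05.

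In WT GMP against LSK, 22 of the 53 were lower and 2 higher, with a median of -0.25. Of all probe sets 28.8% were lower and 6.04% higher, with a median of -0.20. With 1 probe set per gene, 38% of all genes were called in either direction. The targets had 9 of 14 lower and a median of -0.87. These 9 include Hey2 and Heyl, which were at background on all arrays and have no fold. Gata3 and Ccnd1, regulators of T cell fate and of the cell cycle, were at -1.99 (SE 0.14, adjusted p = 5.47e-05) and -1.40 (SE 0.11, adjusted p = 8.88e-05). Il2ra, a receptor chain of early thymocytes and activated T cells, was at least 6.74-fold lower. Dtx1, an E3 ligase of the Deltex family that is both a target and a regulator, was at least 2.23-fold lower. The hairy-related target Hey1 was at -1.55 (SE 0.27, adjusted p = 0.0031), with a WT GMP mean of 4.56, near the background limit. Hes5 was at -0.61 (SE 0.17, adjusted p = 0.0214). Its call was lost under both rescalings (adjusted p = 0.619 and 0.24) and on leaving out 1 array in 4 of 9 cases. Hes1 was not called, at -0.11 (adjusted p = 0.656), and Ptcra was at background on all arrays.
The negative regulators had 4 of 11 lower and 1 higher. Nrarp, a feedback inhibitor, was at -1.38 (SE 0.16, adjusted p = 0.000532) and Fbxw7, which marks the intracellular domain for degradation, at -0.60 (SE 0.15, adjusted p = 0.0147). Dtx4, another Deltex ligase, rose most of the 53, at 1.94 (SE 0.14, adjusted p = 5.78e-05).
Of 7 proteolysis genes 2 were lower, the γ-secretase subunits Aph1b at -1.91 (SE 0.19, adjusted p = 0.000224) and Psen2 at -0.69 (SE 0.15, adjusted p = 0.009).
The nuclear complex had 4 of 9 lower. Among them the Mastermind coactivator Maml2 was at least 2.06-fold lower, and the corepressor Cir1 was at -0.69 (adjusted p = 0.000629). The acetyltransferase Ep300 and the corepressor Spen were at -0.48 and -0.43 (adjusted p = 0.0223 and 0.047).
Of the 5 other ligands 3 were lower: Dlk1 at -1.33 (adjusted p = 0.0115), Dll4 at -0.54 (adjusted p = 0.00389), and Dner, which was at background in both groups. Dlk1 and Dll4 were near the background limit in WT GMP, with means of 4.55 and 4.59. In the list for glycosylation, processing and ligand endocytosis, 2 of 9 were lower and 1 higher. B4galt1, a galactosyltransferase, was at 0.35 (adjusted p = 0.0173), the convertase Furin at -0.30 (adjusted p = 0.0411) and the ubiquitin ligase Mib2 at -0.37 (adjusted p = 0.0496).
The split moved with the scaling. After quantile normalization 13 were lower and 8 higher, beside 12.9% lower and 17.6% higher of all probe sets. After centring 12 were lower and 15 higher, beside 12.9% lower and 27% higher of all. Calls of Dll4, Psen2, Furin, Mib2, Ep300 and Spen were lost under both, and that of Fbxw7 under centring. With a block for the replicate number, Spen (adjusted p = 0.0598) and Furin (adjusted p = 0.0545) lost their calls. In the fit of the 2 groups with that block B4galt1 (adjusted p = 0.0515) and Mib2 (adjusted p = 0.0643) lost theirs too. On leaving out 1 array the calls were kept in 1 of 9 cases for Spen, 3 for Furin and Mib2, 5 for Ep300, 7 for B4galt1 and 8 for Fbxw7. In NcstnKO GMP against LSK 27 were lower and 2 higher, the 2 being Dtx4 at 1.86 and Dlk2 at 0.34. Of all probe sets 32.1% were lower and 11.4% higher there. With 1 probe set per gene, 46.8% of all genes were called in either direction.

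**Figure D4:**
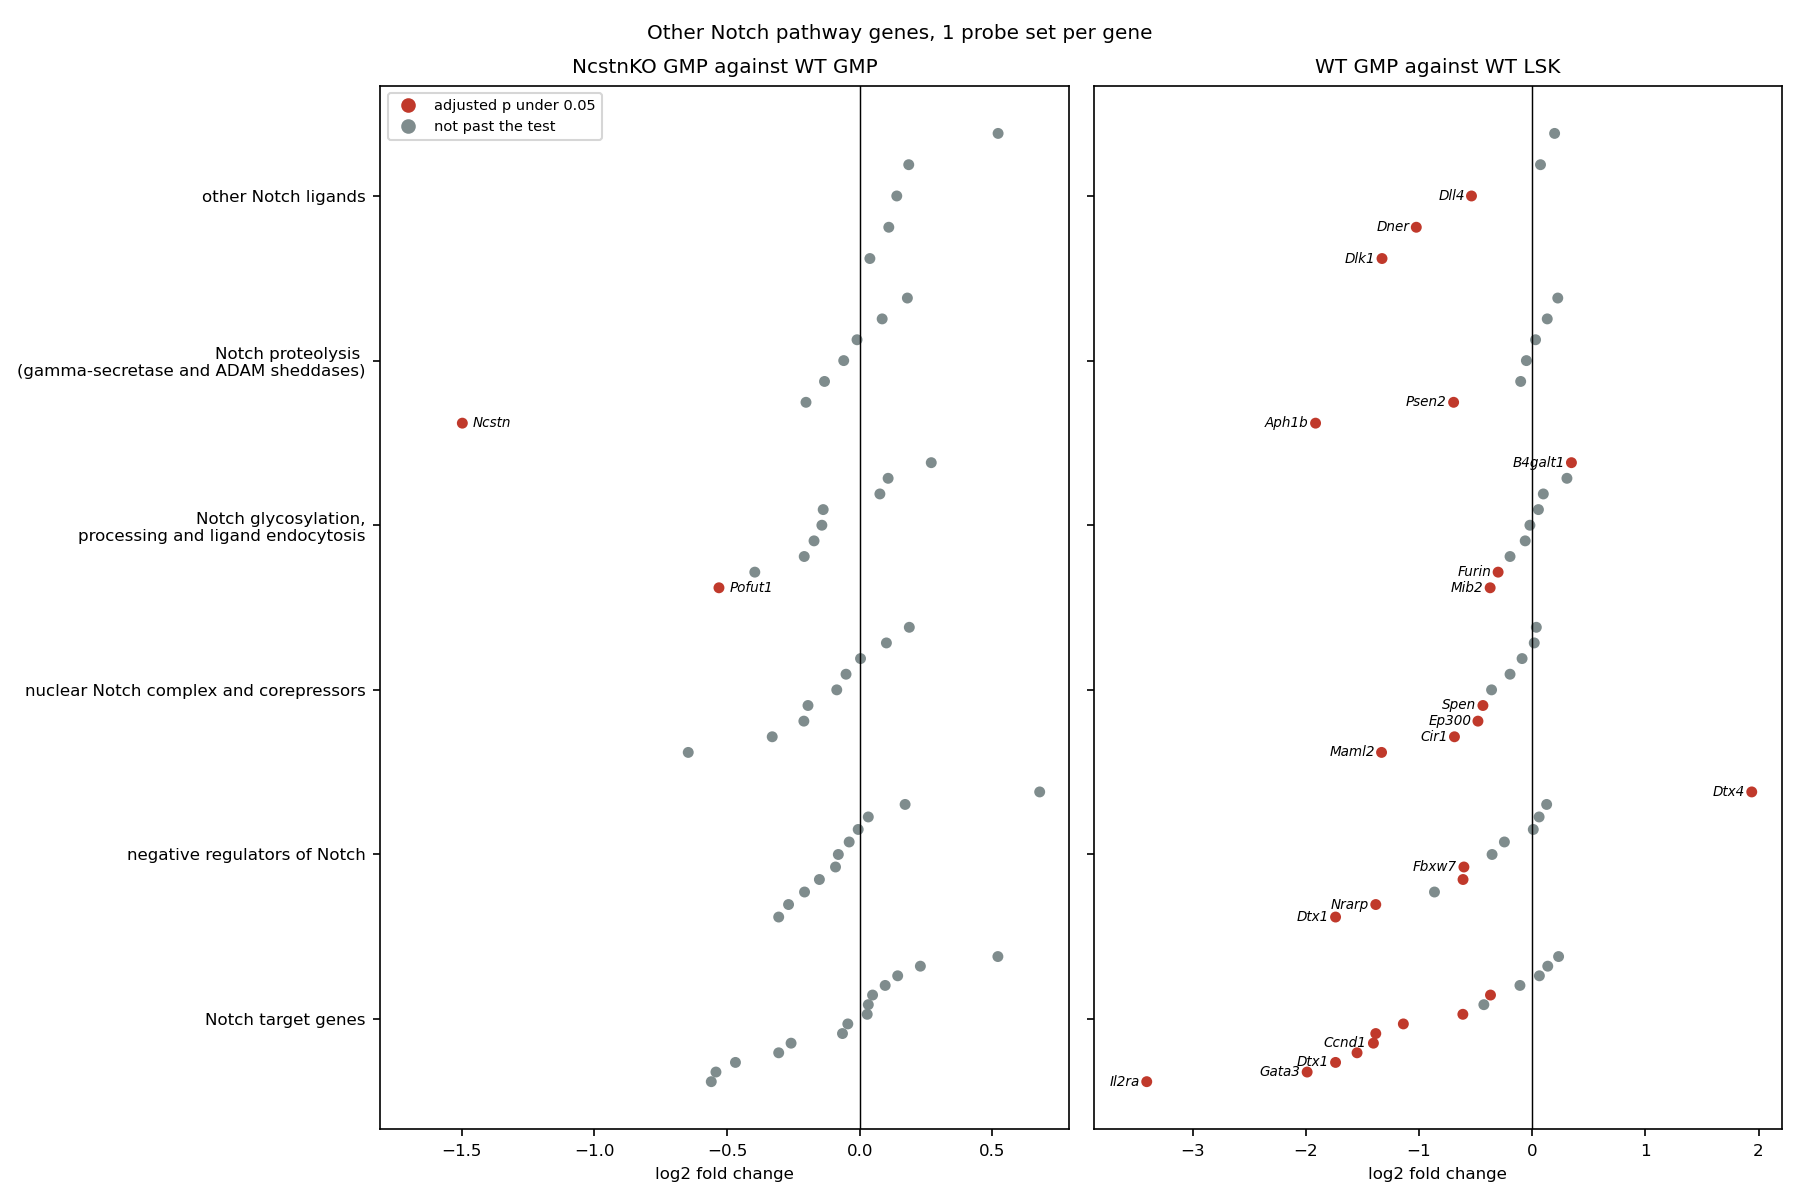
Log2 fold change (x axis) of the other measured Notch pathway genes by list (y axis), in NcstnKO against WT GMP (left) and WT GMP against WT LSK (right), as deposited. Each point is 1 gene, with red for an adjusted p under 0.05 and Dtx1 and Nrarp drawn in 2 lists. Ncstn and Pofut1 are the red points on the left, and 22 lower and 2 higher genes are red on the right.

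Probe sets of 1 gene followed each other closely over the 9 arrays for Notch3 (r = 0.975), Jag2 (r = 0.993), Notch1 (r = 0.906), Lfng (r = 0.831) and the 2 Notch4 probe sets above background (r = 0.948). They did so less for Notch2 (r = 0.554), Rfng (r = 0.614) and Jag1, whose 3 pairs had r of -0.08, 0.48 and 0.66. These values are a description, since all points share the 3 groups. Among 14896 genes above background, those whose pattern over the 9 arrays was most like a member's brightest probe set were likewise listed by r. Mfng was followed most closely by Rnf222 and Plxna4 (both r = 0.997) and Sh3glb2. Notch1 was followed by Mfsd6 (r = 0.995), Syde1 and Rbpms, and Jag2 by Cyp26b1 (r = 0.995), Eps8l2 and Ncam2. For Dll1 they were Trpm3 (r = 0.994), Slc39a14 and Zfp469, for Lfng Npdc1 (r = 0.990), Prkaa2 and Fam241b, and for Notch3 Zfp451 (r = 0.989), Vps39 and Eya1. Likeness was lower for Notch2, led by Dach1 (r = 0.981), Zfp267 and Fry, and for Rfng, led by Mbtps1 (r = 0.940), Noc2l and Marchf6. For Jag1 the leading genes were Cers5 (r = 0.939), Chst2 and Cdhr3, and for Notch4 they were 4930483K19Rik (r = 0.928), Car7 and P2ry6.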

How the data were processed

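Each probe set has a linear intensity as deposited by the authors, from 3.79 to 23177 over 45101 probe sets on 9 arrays, computed with RMA per the submitters' processing notes, which give no version. RNA (5 ng) was amplified and labelled with biotin, per the labels' protocols. Whether the arrays were normalized together is not given in the sources used here. The number of arrays limits the precision.

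Log2 of the deposited intensity was fitted by lmFit and eBayes of limma 3.58.1 (R 4.3.3, 2-sided tests), as 3 group means over the 9 arrays with 6 residual degrees of freedom. P-values were adjusted by Benjamini-Hochberg over 45037 probe sets, without 64 control probe sets, and called under 0.05. Levels of different probe sets are not comparable. Names came from GEO's platform annotation, in which 34945 probe sets had 1 symbol, 932 several and 9160 none. The background limit of an array is the 95th percentile of 27 bacterial control probe sets. The fit was also run on simulated data, with independent noise and wide changes set in bright probe sets only. That run does not cover dim probe sets, small differences or uneven scaling of the arrays.

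The members, the pathway and marker lists and the tests were chosen with earlier results of these data known. Of each pathway list, up to 4 called genes per comparison were named, by smallest p, and for each member the 3 most alike genes. Hes1, Hes5, Hey1, Hey2, Heyl, Ptcra, Cd34, Dlk2, C1qa, C1qc and Vwf are named outside that rule, after their values were seen. The labels do not tell which animal each array came from, so p-values measure only the spread between these arrays, which may be technical.

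The replicate numbers were checked as a pairing. After subtracting group means, same-numbered WT GMP and LSK arrays had correlations of 0.219, 0.238 and 0.291 over 18193 genes. Arrays of other numbers reached at most -0.0757. These groups count as possibly paired, from the data and not the labels. The main tests left this out, and the replicate block takes it in. In both groups replicate 1 carried female transcripts and replicates 2 and 3 male ones. The part of sex in these correlations was not tested. Same-numbered NcstnKO and WT GMP arrays, at -0.0924, 0.00367 and 0.0219, do not count as paired. The alternatives were quantile normalization, centring on the 75th percentile, 1 probe set per gene, leaving out the dimmest 40%, an offset of 16, 2 groups only, sex or the Actb ratio as a covariate, a replicate block, limma's trend and robust options, and leaving out each array. Leaving out the 4 arrays whose sex transcripts oppose their labels was added after seeing the data, as was running the alternatives on the other pathway genes.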

Additional observations from a re-analysis of the deposited data

How the results depend on the processing

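The count of probe sets called in NcstnKO against WT GMP was 0 of 20 under all alternatives, which called 0% to 5.7% of all features. In WT GMP against LSK, 14 of 20 became 9 after quantile normalization (30.5% of all probe sets called), 7 of 10 genes with 1 probe set per gene (38% of all), and 7 without the 4 arrays with other sex transcripts (7.38%). It was 10 to 14 on leaving out 1 array (26.5% to 35.4%). In NcstnKO GMP against LSK, 15 became 8 of 10 genes with 1 probe set per gene (46.8% of all) and 4 without those 4 arrays (14%), and was 10 to 14 on leaving out 1 array (36.4% to 41.6%). One probe set per gene tests fewer features, and without the 4 arrays each GMP group has 1 array, assumed to vary like LSK. With transcript sex as a covariate, 14 members were called in WT GMP and 12 in NcstnKO GMP against LSK (33.6% and 33% of all). With label sex they were 10 and 15 (25.9% and 43%), and with the Actb ratio 13 and 11 (22.5% and 34.9%). Label sex removed the WT GMP calls of Notch4, Jag1 1421106_at and Lfng 1449943_at. Transcript sex removed the NcstnKO calls of Notch2 1455556_at, Notch4 1436901_at and Rfng 1460704_at. The Ncstn difference of -1.50 was -1.46 with the Actb ratio as a covariate (adjusted p = 0.184), -1.50 with a replicate block in 2 groups (adjusted p = 0.161) and -1.46 without the 4 arrays (adjusted p = 0.273), and lay between -1.51 and -1.48 on leaving out 1 array. With the replicate block in the fit of 3 groups, 12 members were called in WT GMP against LSK, beside 33.5% of all probe sets. With the block in the fit of the 2 groups 13 were called, beside 33.3%. In the fit of 3 groups with the block, the calls of Jag1 1421106_at (adjusted p = 0.0554) and Lfng 1449943_at (adjusted p = 0.0652) were lost. So were those of the pathway genes Spen and Furin (adjusted p = 0.0598 and 0.0545).

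Signs turned with the scaling. After quantile normalization WT GMP against LSK was 0.025 for Jag1 1421106_at, 0.033 for Lfng 1449943_at and 0.12 for Mib2, and NcstnKO GMP against LSK was 0.42 for Notch2 1451889_at and 0.36 for Jag1 1421105_at. After centring, WT GMP against LSK was 0.048 for Furin, and NcstnKO GMP against LSK was 0.36 for Jag1 1421105_at, 0.0042 for Jag1 1421106_at and 0.00042 for Lfng 1449943_at. Of the other values of single genes and of pathway counts under the alternatives, 1616 kept their call and direction or were uncalled both times, 193 lost the call, 3 gained it and 19 counts moved by over 1.5 times. The cause was not tested.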
